A study of Caenorhabditis elegans with 9 samples.

Results

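The 10 genes described here act in fatty acid synthesis and desaturation, and their transcripts were followed across wild-type worms and worms that lack 1 or both of a pair of DNA repair genes. They are pod-2, fasn-1, sbp-1 and the desaturase genes fat-1 to fat-7. They were chosen by name, and a probe set (the group of array probes that is read as 1 value) was taken for a gene where the platform annotation gives it that symbol alone. All 10 genes have such a probe set, out of 17118 genes that do, and together they have 11 of the 22548 probe sets tested. Only fasn-1 has more than 1, and the set with the higher mean stands for it, while the other is given as a second reading.

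The study asked how loss of base excision repair, of nucleotide excision repair or of both changes the transcriptome of Caenorhabditis elegans. It used 4 strains: N2 Bristol as the wild type, a strain with the deletion allele ok724 of the DNA glycosylase gene nth-1, a strain with the deletion allele ok698 of the nucleotide excision repair gene xpa-1, and a double mutant that carries both alleles and was made for the work. The table holds 9 Affymetrix arrays, 3 for nth-1 and 2 for each of the other strains. Every strain was backcrossed and grown as a mixed-stage population on plates seeded with HT115(DE3) bacteria, and was collected once the plates had been cleared of food. A value is therefore a mean over whole worms of all ages, so fewer cells of a type and less RNA per cell cannot be told apart.

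As background, most of these genes encode enzymes that build fatty acids or put double bonds into them. POD-2, the acetyl-CoA carboxylase, makes malonyl-CoA, and FASN-1, the fatty acid synthase, builds palmitic acid from it. FAT-5 puts the first double bond into palmitic acid, while FAT-6 and FAT-7 do so in stearic acid and give oleic acid. FAT-2 converts oleic to linoleic acid, FAT-1 is the omega-3 desaturase, and FAT-3 and FAT-4 are the front-end desaturases that complete the long polyunsaturated acids. SBP-1 is the worm ortholog of the SREBP transcription factors and is known to drive the synthesis and desaturase genes. Most of this work is done in the intestine, which also makes the yolk lipoproteins that carry fat to the oocytes.

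The values are log2 expression values, and a difference of 1 between strains is a doubling. Limma was fitted once to all 9 arrays, with p-values adjusted over all probe sets at a threshold of 0.05, and a gene is said to have risen or fallen only where it passed. The xpa-1 transcript read 10.35 to 10.69 on the 5 arrays of N2 and nth-1 and 5.66 to 6.59 on the 4 arrays of the strains that carry ok698. For the nth-1 transcript (9.37 to 9.63 in nth-1, 9.32 and 9.63 in N2) no such check is possible, since the place of its probes relative to the deletion is not given. The hybridization control BioC, a bacterial transcript added to each array, separates the arrays: it read 9.54 to 9.99 on both N2 arrays, both double mutant arrays and xpa-1 replicate 1, and 8.04 to 8.28 on the 3 nth-1 arrays and xpa-1 replicate 2. This is a grouping found in the data and not a labelled batch. It lies almost along the line between nth-1 and the rest, but N2 and the double mutant are wholly on the same side of it. Replicate 3 of nth-1 stood apart from its strain (r = 0.95 with replicate 1 and 0.952 with replicate 2 over the probe sets, while those had r = 0.991). The sums of 7 intestine markers, all measured and none at 0 on any array, overlapped between N2 and the double mutant (14.51 to 14.65 against 14.49 to 14.55 on the log2 scale). In xpa-1 they ran from 14.12 to 14.72, and in nth-1 all were below N2 (13.93 to 14.35). Against N2, 1 of the 7 rose in nth-1 (pept-1, 1.85) and 1 fell (asp-1, -0.83), beside 10% of all probe sets called.

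In the double mutant, 1 of the 10 genes fell against N2 and none rose, where 8.64% of all probe sets were called in that comparison. The gene was fat-5. In xpa-1 only pod-2 rose and none fell (10.5% of all probe sets called), and in nth-1 limma called none of the 10 (10% of all probe sets called). At an unadjusted p under the threshold, 1 gene was higher and 1 lower in nth-1, beside 27.2% of all probe sets. No member differed between xpa-1 and nth-1, a comparison in which only 0.0266% of probe sets were called. No member had an unadjusted p under the threshold there either, beside 8.84% of all probe sets. Against nth-1, the double mutant was lower for fat-1, fat-4 and fat-5, 3 of 10 beside 36.7% of all probe sets, and against xpa-1 for fat-1 and fat-5, 2 of 10 beside 34.8%. In a fit of the N2 and double mutant arrays alone, which leaves out the spread of the single mutants, 8 of the 10 were called (fat-1, fat-4, fat-5, fat-6 and fat-7 lower, pod-2, fasn-1 and sbp-1 higher), beside 43.7% of all probe sets. In the fit of all arrays the members' shares are near or below those of all probe sets, so these counts are no result about the group as such. Every comparison with N2 uses the same 2 N2 arrays.

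**Figure D1:**
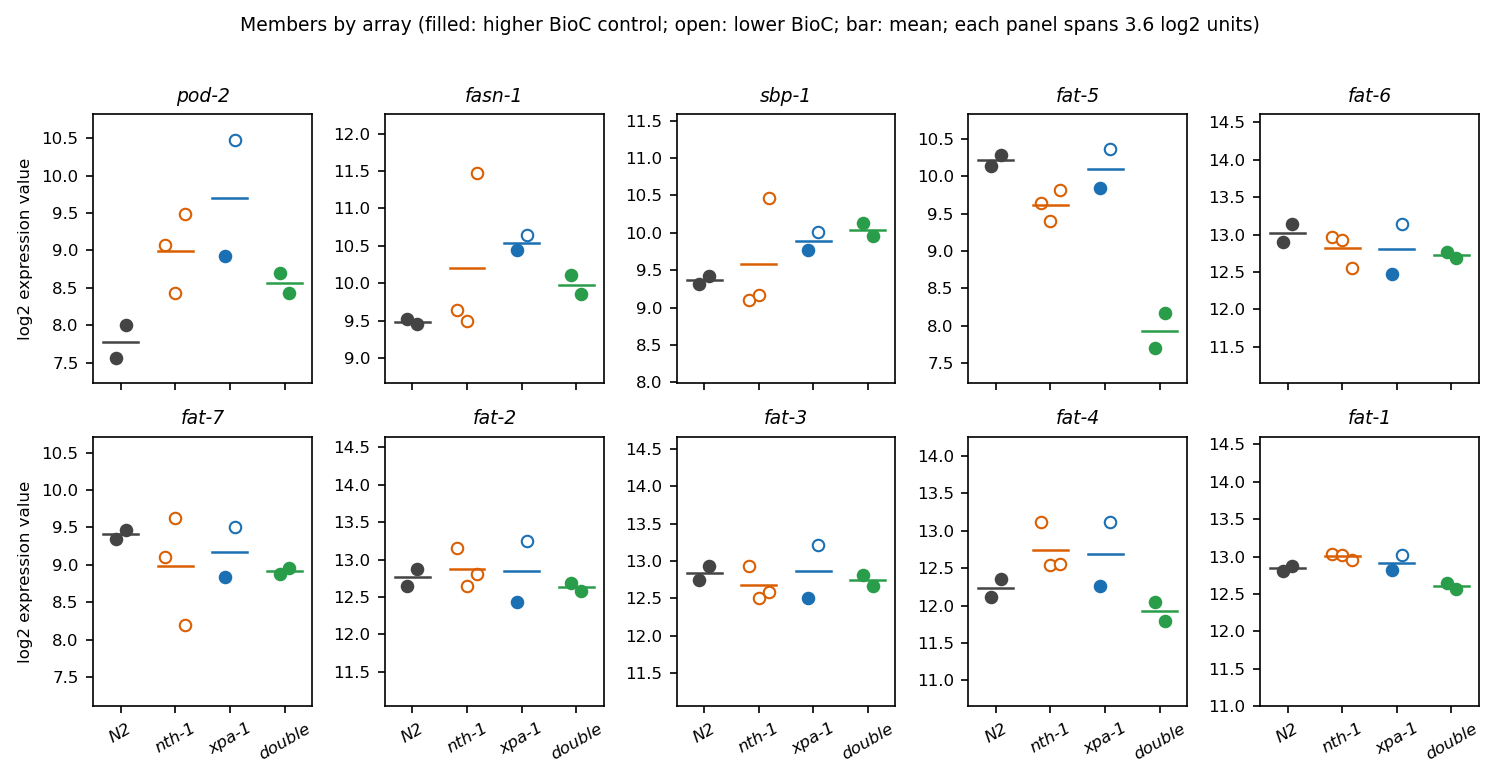
Log2 expression value of each of the 10 genes on each of the 9 arrays, by strain, with the strain mean as a bar and filled points for arrays with the higher BioC control level; every panel spans the same number of log2 units. The 2 double mutant arrays lie far below all others for fat-5, the N2 pair lies lowest for pod-2, and nth-1 replicate 3 stands away from its strain for fasn-1, sbp-1 and fat-7.

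The palmitoyl-CoA desaturase gene fat-5 had the largest difference of any member. It read 10.14 and 10.29 on the N2 arrays, 9.64, 9.40 and 9.81 in nth-1, 9.84 and 10.36 in xpa-1, and 7.70 and 8.17 in the double mutant. Both double mutant arrays were below every other array, while xpa-1 overlapped N2 and the nth-1 arrays lay between. In the double mutant fat-5 fell by 2.28 against N2 (standard error 0.26, 95% interval -2.88 to -1.68, adjusted p = 0.0028), a ratio of mean signals of -4.8 (the minus sign marks the lower strain as the mutant), and 99.5% of probe sets had a smaller difference. It fell by 2.17 against xpa-1 (adjusted p = 0.00086) and fell by 1.68 against nth-1 (adjusted p = 0.0016).

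The fall of fat-5 against N2 lies within arrays of 1 BioC level, so with that level as a block it was again -2.28 (adjusted p = 0.0044), and the difference from xpa-1 was -1.91 (adjusted p = 0.0061). The difference from nth-1, which crosses the BioC levels, was -1.16 under the block and did not pass (adjusted p = 0.13). Leaving out any 1 array kept the value against N2 between -2.52 and -2.05, and the call was lost only without N2 replicate 2 (adjusted p = 0.052). In nth-1 the value against N2 was -0.60 (95% interval -1.15 to -0.05, adjusted p = 0.15), and it was -0.70 and passed when replicate 3 was left out (adjusted p = 0.047). In xpa-1 the difference was -0.12 (95% interval -0.72 to 0.49, adjusted p = 0.82).

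Marker genes of other cell types are given beside fat-5 because the RNA is from whole worms. In the double mutant against N2, 8.64% of all probe sets were called. The summed level of 5 vitellogenin genes, which adult hermaphrodites express in the intestine, was 14.98 to 15.07 in the double mutant and 16.06 to 16.12 in N2, and 2 of the 5 fell. The sum of 8 oocyte and embryo markers was 13.98 to 14.09 against 14.71 to 14.76, with 4 of 8 lower. The 5 body wall muscle markers summed to 14.72 to 14.74 against 14.06 to 14.14, with 2 of 5 higher. The 8 sperm markers summed to 12.80 to 12.82 against 12.01 to 12.08, with 1 of 8 (spe-11) higher. The 7 hypodermis and molting markers summed to 13.65 to 13.76 against 13.59 to 13.62, and the 6 neuron markers to 13.72 to 13.75 against 13.25 to 13.34. None of either list was called. None of these markers was at 0 on any array. In xpa-1 the vitellogenin sum was 16.43 to 16.50 and the oocyte and embryo sum 15.37 to 15.40, both above N2. In nth-1 these sums (15.32 to 16.41 and 14.44 to 14.92) overlapped N2. Of the 8 oocyte and embryo markers, 7 were lower in the double mutant than in xpa-1 (34.8% of all probe sets called). Against nth-1, 5 were lower (36.7%). The part of these marker differences in the fat-5 difference, or in the comparisons of the other members, was not tested. For the intestine markers themselves, 1 of 7 was lower and none higher in the double mutant than in N2.

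The stearoyl-CoA desaturase genes fat-6 and fat-7 were not called in any comparison in the fit of all arrays. The gene fat-6 read 12.90 and 13.14 in N2, 12.97, 12.93 and 12.56 in nth-1, 12.48 and 13.14 in xpa-1, and 12.77 and 12.69 in the double mutant. The double mutant arrays were below both N2 arrays but inside the range of the single mutants. The difference from N2 was -0.29 (95% interval -0.78 to 0.20, adjusted p = 0.44, and adjusted p = 0.0072 in the fit of those 4 arrays alone), so an interval that reaches 0.78 below N2 does not reach the size seen for fat-5. The genes fat-6 and fat-7 are closely related, and the fat-6 probe set carries the suffix that Affymetrix gives to sets shared by several transcripts. Its reading may therefore include fat-7 transcript, which was not checked against probe sequences. The fat-7 probe set does not carry that suffix.

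The gene fat-7 read 9.35 and 9.47 in N2, 9.11, 9.63 and 8.19 in nth-1, 8.84 and 9.5 in xpa-1, and 8.87 and 8.95 in the double mutant. nth-1 replicate 3 was the lowest of the 9 arrays, and nth-1 replicate 2 the highest. Both double mutant arrays were below both N2 arrays. The double mutant differed from N2 by -0.50 (95% interval -1.46 to 0.46, adjusted p = 0.51) and from nth-1 by -0.07 (adjusted p = 0.91). In the fit of the N2 and double mutant arrays alone the same -0.50 passed (adjusted p = 0.0028), without the spread within nth-1 (SD 0.73, n = 3). The probe sets whose values followed fat-7 most closely over the 9 arrays belonged to msrp-4 (Pearson's r = 0.96), M01F1.8 (r = 0.90) and T01D3.6 (r = 0.90), out of 12805 probe sets searched.

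**Figure D2:**
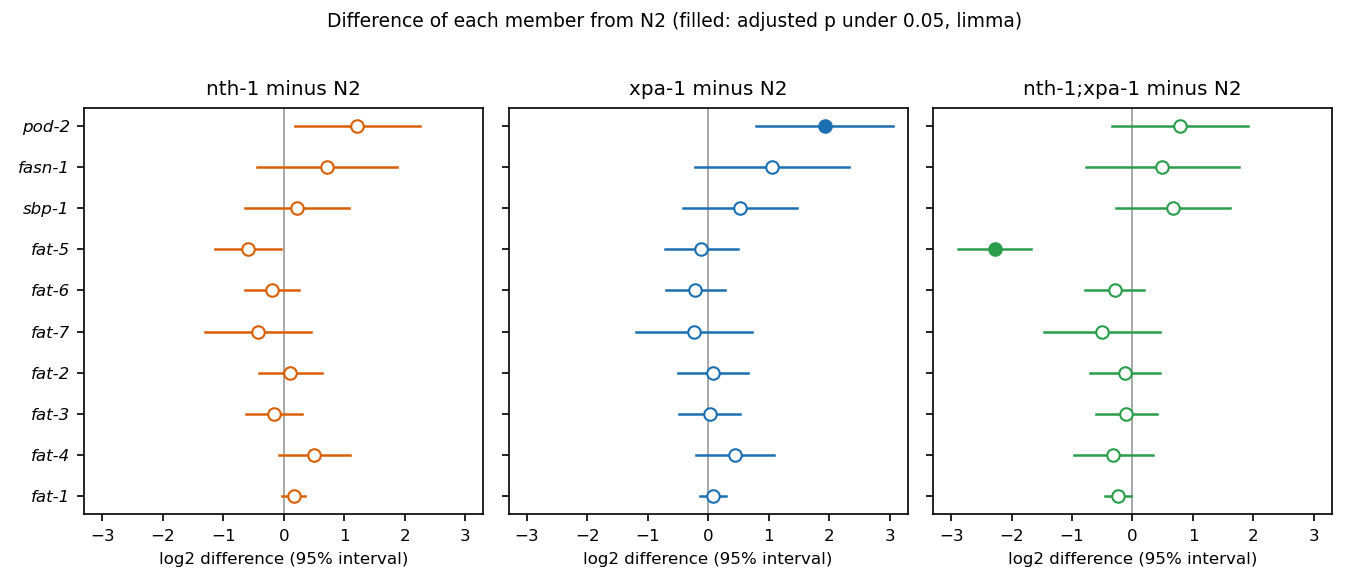
Log2 difference of each member from N2 in each of the 3 mutant strains, with its 95% interval from limma and filled points where the adjusted p is under 0.05. Only pod-2 in xpa-1 (1.93) and fat-5 in the double mutant (-2.28) are filled, and the intervals of fat-1 are the narrowest.

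At the entry of the pathway, pod-2 read lowest on the N2 arrays. The acetyl-CoA carboxylase gene read 7.56 and 8.0 in N2, 9.07, 8.43 and 9.49 in nth-1, 8.93 and 10.48 in xpa-1, and 8.70 and 8.43 in the double mutant. All 7 mutant arrays were above both N2 arrays, the nth-1 arrays overlapped those of both other mutants, and both xpa-1 arrays were above both double mutant arrays. The order of the strain means was N2 (7.78), double mutant (8.57), nth-1 (9.0) and xpa-1 (9.71), and of these only the ends of the order differed by the test. In xpa-1 it rose by 1.93 (standard error 0.50, 95% interval 0.79 to 3.06, adjusted p = 0.043), a ratio of mean signals of 4.31. The difference was 1.22 in nth-1 (standard error 0.45, adjusted p = 0.13, ratio 2.40) and 0.79 in the double mutant (standard error 0.50, adjusted p = 0.36, ratio 1.71).

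The rise of pod-2 in xpa-1 rested on a pair of arrays that are 1.55 apart. With the BioC level as a block, which here leaves only xpa-1 replicate 1, it was 1.15 (adjusted p = 0.19). It failed the test without any 1 of 6 of the 9 arrays, with an adjusted p of up to 0.24 (without N2 replicate 1). In nth-1 the difference from N2 was -0.33 under the block (adjusted p = 0.90), and the block rests on the difference between the xpa-1 arrays alone. The pod-2 probe set also has the suffix for shared transcripts.

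The fatty acid synthase gene fasn-1 read 9.52 and 9.45 in N2, 9.64, 9.5 and 11.47 in nth-1, 10.44 and 10.64 in xpa-1, and 10.11 and 9.85 in the double mutant. Both xpa-1 arrays and both double mutant arrays were above N2, while nth-1 replicates 1 and 2 read like N2 and replicate 3 was the highest of all. No comparison passed: the difference from N2 was 0.72 in nth-1 (adjusted p = 0.40), 1.06 in xpa-1 (adjusted p = 0.25) and 0.50 in the double mutant (adjusted p = 0.63). Without nth-1 replicate 3, which then no longer enters the common spread, fasn-1 rose in xpa-1 by the same 1.06 (adjusted p = 0.0016), in a fit that called 28.6% of all probe sets. The nth-1 difference without that array was 0.09 (adjusted p = 0.73).

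The second fasn-1 probe set gave the same order of arrays within nth-1. It read 6.80 and 7.08 in N2, 7.46, 7.07 and 8.84 in nth-1, 7.43 and 8.19 in xpa-1, and 7.06 and 7.14 in the double mutant. Replicate 3 of nth-1 was again the highest array, 1.58 above the mean of the other two, against 1.90 in the main set. The double mutant here lay on the N2 values, with a difference of 0.16 (adjusted p = 0.88).

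By the fold threshold of the study's methods, a ratio of mean signals of 1.8, pod-2 and fasn-1 passed in nth-1, 2 of 10 genes beside 9.07% of all probe sets. The same pair passed in xpa-1 (12.4% of all probe sets). In the double mutant fat-5 alone passed, in the lower direction (12%). The ratio of fasn-1 was 2.03 in nth-1 and 2.08 in xpa-1, and without nth-1 replicate 3 that in nth-1 was below 1.8.

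In the polyunsaturated desaturase genes the strain means spanned 0.19 (fat-3) to 0.82 (fat-4). Their probe sets, with that of fat-6, were among the brightest of the array, at the 98.5th to 99.1st percentile of mean signal. The largest value on any array was 14.55, and whether such bright sets understate a rise was not tested. The omega-3 desaturase gene fat-1 read 12.81 and 12.87 in N2, 13.03, 13.02 and 12.96 in nth-1, 12.82 and 13.02 in xpa-1, and 12.64 and 12.57 in the double mutant. Both double mutant arrays were the lowest of the 9, by a small margin. The gene fell by 0.40 against nth-1 (standard error 0.09, adjusted p = 0.0077) and by 0.32 against xpa-1 (standard error 0.09, adjusted p = 0.029), and differed from N2 by -0.24 (95% interval -0.45 to -0.02, adjusted p = 0.15). With the BioC level as a block neither of the 2 falls passed (-0.20, adjusted p = 0.40, and -0.22, adjusted p = 0.15). Of the 9 fits that leave out 1 array, the fall against nth-1 failed in 1, without double mutant replicate 2 (adjusted p = 0.071), and that against xpa-1 in 5, without either double mutant array, either N2 array or xpa-1 replicate 2 (adjusted p up to 0.15).

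The front-end desaturase gene fat-4 read 12.12 and 12.35 in N2, 13.12, 12.54 and 12.56 in nth-1, 12.26 and 13.11 in xpa-1, and 12.05 and 11.79 in the double mutant. The double mutant was again lowest on both arrays, and nth-1 was above N2 on all 3. Against nth-1 fat-4 fell by 0.82 (standard error 0.26, adjusted p = 0.037), and against xpa-1 the difference was -0.77 (adjusted p = 0.066). Against N2 the values were -0.32 in the double mutant (adjusted p = 0.54), 0.45 in xpa-1 (adjusted p = 0.34) and 0.51 in nth-1 (adjusted p = 0.25). The difference between the double mutant and nth-1 turned to 0.03 with the BioC level as a block (adjusted p = 0.97), and it failed without any 1 of 5 of the arrays (adjusted p up to 0.20, without double mutant replicate 2).

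The other two genes of the group, fat-2 and fat-3, were not called in any comparison. The gene fat-2, whose enzyme makes linoleic acid, read 12.65 and 12.87 in N2, 13.16, 12.65 and 12.80 in nth-1, 12.43 and 13.25 in xpa-1, and 12.69 and 12.58 in the double mutant. The gene fat-3, whose enzyme acts on linoleic and linolenic acid, read 12.75 and 12.93 in N2, 12.93, 12.50 and 12.59 in nth-1, 12.51 and 13.22 in xpa-1, and 12.81 and 12.67 in the double mutant. For both genes the xpa-1 arrays held the lowest or nearly the lowest value and the highest, and all strains overlapped. The double mutant differed from N2 by -0.13 for fat-2 (95% interval -0.70 to 0.45) and by -0.10 for fat-3 (95% interval -0.61 to 0.41). In the RefSeq annotation, fat-1 lies beside fat-2 and fat-3 beside fat-4, with 0 protein-coding genes between them. Within each of these pairs of neighbours 1 gene was lower in the double mutant than in nth-1 (fat-1, fat-4) while the other was not called (fat-2 -0.24, adjusted p = 0.46, and fat-3 0.07, adjusted p = 0.82), and the difference between neighbours was not tested.

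The regulator gene sbp-1 read 9.31 and 9.42 in N2, 9.10, 9.17 and 10.47 in nth-1, 9.77 and 10.01 in xpa-1, and 10.13 and 9.95 in the double mutant. The xpa-1 and double mutant arrays were above both N2 arrays, and nth-1 replicate 3 was the highest of the 9 while its 2 fellow arrays were the lowest. No comparison passed, with a difference from N2 of 0.22 in nth-1 (adjusted p = 0.76), 0.53 in xpa-1 (adjusted p = 0.45) and 0.68 in the double mutant (95% interval -0.27 to 1.62, adjusted p = 0.35). Without nth-1 replicate 3, sbp-1 rose in the double mutant by the same 0.68 (adjusted p = 0.014, 26.2% of all probe sets called), and the 0.53 of xpa-1 passed as well (adjusted p = 0.037). The sbp-1 probe set has the suffix for shared transcripts. In the double mutant the mean of sbp-1 was thus above N2 (10.04 against 9.37) while that of fat-5 was below it (7.94 against 10.22), and the other desaturase genes read within 0.50 of N2. The probe sets closest to sbp-1 over the 9 arrays were those of obr-3 (Pearson's r = 0.99), W06H8.5 (r = 0.98) and scd-1 (r = 0.98).

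The question whether the double mutant adds up the changes of the single mutants was tested as an interaction, the change in the double mutant minus that sum. It was below 0 for fat-1, fat-4, fat-5 and pod-2, 4 of 10 genes beside 39.4% of all probe sets. For pod-2 the single changes sum to well above the 0.79 of the double mutant, and the interaction was -2.36 (standard error 0.67, adjusted p = 0.023). For fat-5 the double mutant was below the sum of the single mutants (interaction -1.57, standard error 0.36, 95% interval -2.38 to -0.75, adjusted p = 0.0089). The interaction was -1.27 for fat-4 (standard error 0.39, adjusted p = 0.029) and -0.48 for fat-1 (standard error 0.13, adjusted p = 0.017).

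The interaction of fat-5 passed without each of the 9 arrays in turn, with an adjusted p of at most 0.047, whereas those of fat-1, fat-4 and pod-2 each failed in at least 2 of these fits. Each single-mutant change contains arrays of the lower BioC level, and with that level as a block no member passed (fat-5 -0.79, adjusted p = 0.45; pod-2 -0.03, adjusted p = 0.99; fat-1 -0.18, adjusted p = 0.62). The interaction of fat-4 turned to 0.005 (adjusted p = 1.0). Among the members not called, fasn-1 had the most negative value in the fit of all arrays, -1.28 (95% interval -3.0 to 0.44, adjusted p = 0.21). The values of sbp-1 (-0.07), fat-3 (0.04), fat-6 (0.12) and fat-7 (0.17) were all within 0.20 of the sum of the single mutants, with intervals that reach at least 0.54 on each side of 0, and that of fat-2 was -0.32 (95% interval -1.09 to 0.46).

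**Figure D3:**
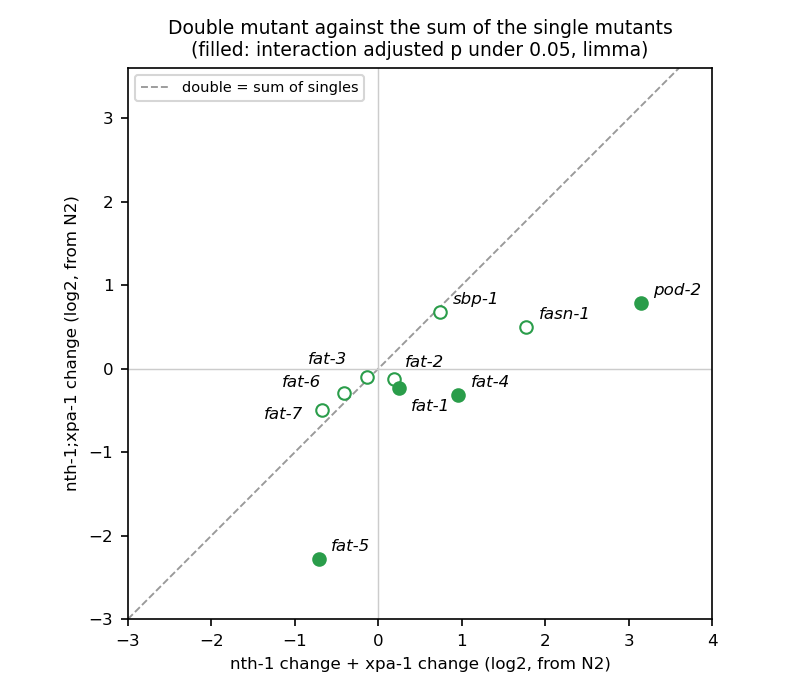
Change from N2 in nth-1;xpa-1 (log2, vertical) against the summed changes of the single mutants (log2, horizontal) for the 10 genes, with the line on which the double mutant equals the sum and filled points where the interaction passed limma's test. The 4 filled genes (fat-1, fat-4, fat-5 and pod-2) lie below the line, with interactions of -0.48 to -2.36.

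The members also moved together between the replicates of xpa-1. All 10 read higher on xpa-1 replicate 2 than on replicate 1, by 0.20 to 1.55 with a median of 0.66, whereas over all probe sets 47.8% were higher and the median difference was -0.01. These 2 arrays are also the ones that differ in BioC level. The cause of this shift was not tested. For each gene the fit of all arrays pools the spread over the strains. The gap between the xpa-1 arrays thus enters the intervals of all comparisons in that fit, not only those of xpa-1. In N2 the 2 arrays differed by 0.17 (median over the members, replicate 2 higher for 9 of 10), beside 53.5% of all probe sets higher and a median of 0.02. In the double mutant they differed by -0.13 (2 of 10), beside 39.0% higher and a median of -0.05.

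In nth-1 the array that stood apart was replicate 3. Against the mean of replicates 1 and 2, it was higher by 1.90 for fasn-1, 1.34 for sbp-1 and 0.74 for pod-2, and lower by 1.18 for fat-7. The remaining members were within 0.39 of that mean. In all, 3 of the 10 genes lay more than 1 log2 unit away, beside 11.6% of all probe sets. This array has the same lower BioC level as the other nth-1 arrays. The cause of these readings was not tested.

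**Figure D4:**
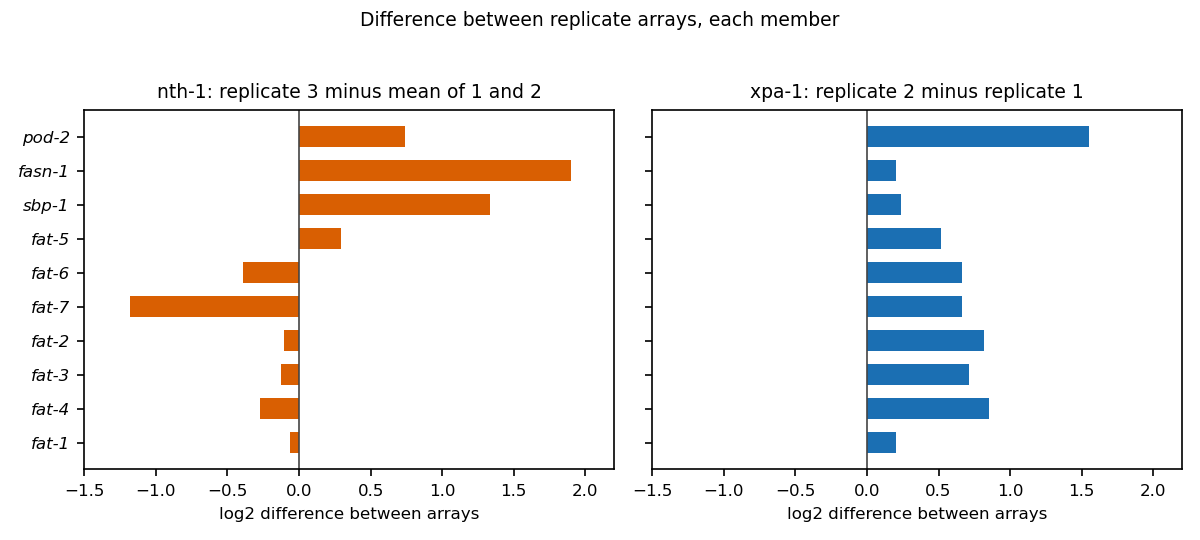
Log2 difference between replicate arrays for each member, as nth-1 replicate 3 minus the mean of replicates 1 and 2 (left) and xpa-1 replicate 2 minus replicate 1 (right). All 10 differences of xpa-1 are above 0 (0.20 to 1.55), and in nth-1 the bars of fasn-1, sbp-1 and fat-7 pass 1 log2 unit.

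The steps that follow desaturation and feed synthesis were followed in 3 further lists, which were chosen with results of these data known. Of 17 genes of elongation and precursor supply, 16 were measured. In nth-1, 5 rose and none fell (10% of all probe sets called, median 0.23 against -0.05 over all), and in xpa-1, 6 rose and 1 fell (10.5% called, median 0.39 against -0.04). In the double mutant 1 rose and 2 fell (8.64% called, median -0.04 against 0.05). The counts of rises depended on the few arrays: none rose in either single mutant without N2 replicate 1, 2 in nth-1 and 1 in xpa-1 without N2 replicate 2, 2 in xpa-1 without xpa-1 replicate 2, and 0 in nth-1 and 2 in xpa-1 with the BioC level as a block. Without nth-1 replicate 3 the falls numbered 4 in nth-1 (26.9% of all probe sets called) and 3 in xpa-1 (28.6%). Among fatty acid elongase genes, elo-2 rose in all 3 strains: it read 10.40 and 10.53 in N2, 11.56, 11.61 and 11.78 in nth-1, 11.43 and 11.72 in xpa-1, and 11.48 and 11.39 in the double mutant. All 7 mutant arrays were above N2, and the rises were 1.19 (adjusted p = 0.0028), 1.11 (adjusted p = 0.0056) and 0.97 (adjusted p = 0.011). Those in xpa-1 and the double mutant passed with the BioC level as a block (0.97, adjusted p = 0.035, and 0.97, adjusted p = 0.011), and that in nth-1 did not (0.90, adjusted p = 0.24). All 3 failed without N2 replicate 1. The rises in xpa-1 and the double mutant also failed without N2 replicate 2, and that in the double mutant without either of its own arrays.

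Other genes of this list rose in the single mutants but were not called in the double mutant. The 3-ketoacyl-CoA reductase gene let-767 read 11.77 and 11.80 in N2, 12.78, 12.61 and 12.70 in nth-1, 12.58 and 12.89 in xpa-1, and 11.69 and 11.58 in the double mutant. The single mutant arrays were all above the others, without overlap. Its rises were 0.91 (nth-1, adjusted p = 0.0035) and 0.95 (xpa-1, adjusted p = 0.0045), and both failed when either N2 array was left out. Under the BioC block the rise in nth-1 failed (0.60, adjusted p = 0.28) and that in xpa-1 passed (0.80, adjusted p = 0.026). The let-767 interaction of -2.01 passed in the fit of all arrays (adjusted p = 0.00016), under the BioC block (-1.55, adjusted p = 0.025) and without each array in turn (adjusted p of at most 0.0021). The elongase genes elo-6 (0.84 in nth-1, 0.87 in xpa-1) and elo-5 (0.79 in nth-1, and 0.785 in xpa-1 with adjusted p = 0.035) also rose. Neither rise of elo-6 passed under the block (adjusted p = 0.45 in nth-1 and 0.064 in xpa-1), nor did that of elo-5 in nth-1 (adjusted p = 0.77). The elo-5 rise in nth-1 also failed without any 1 of 5 of the arrays. In xpa-1 only elo-4 fell, and it fell by 2.30 (standard error 0.49, adjusted p = 0.024), from 10.73 and 10.69 in N2 to 8.60 and 8.23, and it failed without any 1 of 6 of the arrays.

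In the double mutant the ATP citrate lyase gene acly-2 and art-1, an enoyl-CoA reductase homolog, fell against N2 by 0.66 (adjusted p = 0.046) and 0.48 (adjusted p = 0.045). Both failed under the BioC block (adjusted p = 0.057 and 0.051) and without any 1 of at least 7 of the arrays. Against nth-1 and xpa-1, 5 and 6 genes of the list were lower in the double mutant and 1 higher, beside the 36.7% and 34.8% called among all probe sets. The gene that was higher in both was elo-7 (1.60 against nth-1, adjusted p = 0.0013, and 1.55 against xpa-1, adjusted p = 0.0021). It read 7.47 and 7.41 in the double mutant, 6.57 and 6.60 in N2 and 5.47 to 6.20 in the single mutants, and its interaction was 2.29 (adjusted p = 0.0011, and 2.97 with adjusted p = 0.033 under the block). This is a dim probe set: all readings outside the double mutant were below 7.04, the 40th percentile of mean level over the probe sets. In the interaction 2 genes of the list were above the sum of the singles and 8 below (39.4% of all probe sets called). With the BioC level as a block these became 2 above and 1 below, and the genes lower in the double mutant became 0 against nth-1 and 5 against xpa-1.

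**Figure D5:**
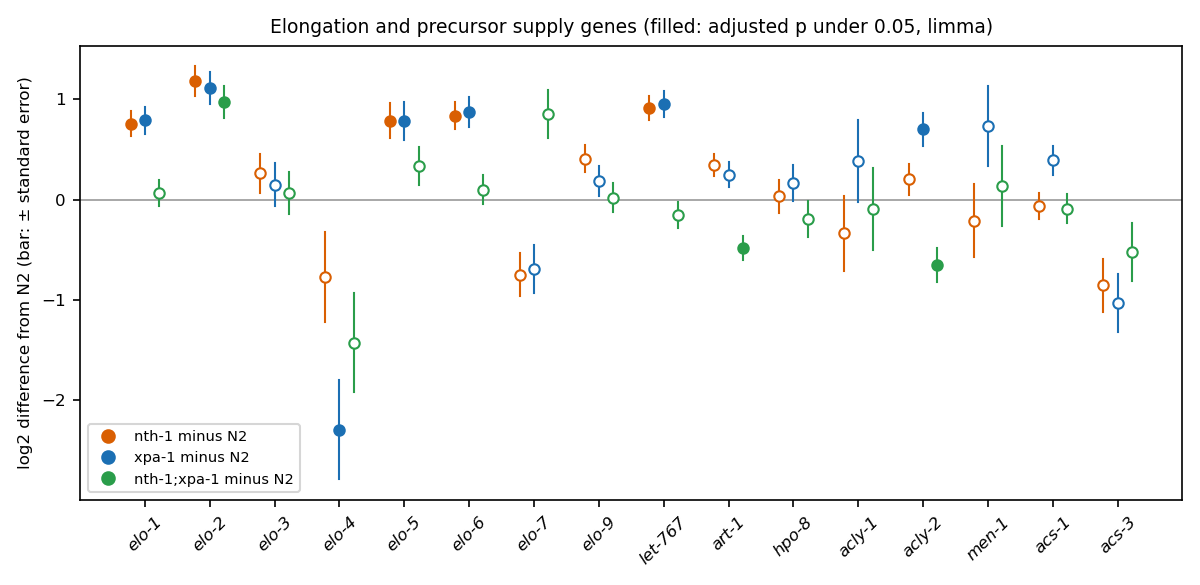
Log2 difference from N2 of 16 genes of elongation and precursor supply in each mutant strain, with standard errors and filled points where the adjusted p from limma is under 0.05. In the single mutants 5 and 6 genes rose (elo-2, let-767, elo-6 and elo-5 among them) and in the double mutant only elo-2.

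None of the 15 regulators of desaturation and lipid synthesis was called against N2 in any mutant, at limma's adjusted threshold. At an unadjusted p under the threshold 1 was higher and 1 lower in each single mutant, and 2 were higher in the double mutant. The shares of all probe sets at that unadjusted threshold were 27.2% (nth-1), 28.4% (xpa-1) and 26.1% (double mutant). A few known regulators of the desaturase genes may be named for their values in the 4 strains. The nuclear receptor gene nhr-49 read 12.29 and 12.32 in N2 and 12.26 and 12.21 in the double mutant (adjusted p = 0.85). In the single mutants it read 11.92, 11.82 and 12.41 (nth-1) and 12.05 and 12.20 (xpa-1). The gene nhr-80 read 8.92 and 8.95 in N2 and 9.83 and 9.62 in the double mutant (adjusted p = 0.21). It read 9.39, 9.09 and 9.36 in nth-1 and 8.34 and 9.60 in xpa-1. The Mediator subunit gene mdt-15 read 7.84 and 7.84 in N2 and 8.36 and 8.35 in the double mutant (adjusted p = 0.16). All single mutant arrays were above N2 as well (7.97, 7.90 and 8.38 in nth-1, 8.10 and 8.34 in xpa-1). Another nuclear receptor gene, nhr-13, was lower in the double mutant than in nth-1 by 0.95 (adjusted p = 0.0050) and than in xpa-1 by 0.97 (adjusted p = 0.0068), and both calls were lost without double mutant replicate 2 (adjusted p = 0.061 and 0.064). With the BioC level as a block the first failed (-0.86, adjusted p = 0.17) and the second passed (-0.92, adjusted p = 0.031). It read 8.96 and 8.97 in N2, 9.42 to 9.77 in nth-1, 9.57 and 9.66 in xpa-1, and 8.73 and 8.57 in the double mutant. The gene lpd-2 was also lower (-0.74 against nth-1 and -0.96 against xpa-1, adjusted p = 0.037 and 0.019) and paqr-2, a membrane fluidity sensor gene, was higher than in nth-1 (0.55, adjusted p = 0.043), each failing in at least 4 of the 9 fits that leave out 1 array.

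Of 17 genes of phospholipid and triacylglycerol assembly and storage, 16 were measured. In each single mutant 2 rose and none fell, and in the double mutant 1 rose and 2 fell (median -0.24, against 0.05 over all probe sets). Of all probe sets, 10% (nth-1), 10.5% (xpa-1) and 8.64% (double mutant) were called, and 2 of 16 is about that share. The acyl-CoA synthetase gene acs-22 read 9.35 and 9.59 in N2, 10.17, 10.19 and 10.07 in nth-1, 9.04 and 10.24 in xpa-1, and 8.03 and 8.0 in the double mutant. Like fat-5 it was lowest on both double mutant arrays, by 1.46 against N2 (adjusted p = 0.037, and 0.0072 with the BioC level as a block). The lipid droplet gene dhs-3 fell by 1.08 (adjusted p = 0.0097, and 0.013 with the block), and sams-1, the S-adenosylmethionine synthetase gene whose product feeds phosphatidylcholine synthesis, rose by 1.36 (adjusted p = 0.021, and 0.028 with the block). All 3 calls failed when any 1 of the N2 or double mutant arrays was left out, and that of acs-22 also without nth-1 replicate 1 or 2.

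In nth-1 the genes of this list that rose were acl-5, a glycerol-3-phosphate acyltransferase gene (1.24, adjusted p = 0.010), and sams-1 (1.11, adjusted p = 0.025), and in xpa-1 they were acl-5 (1.16, adjusted p = 0.019) and acl-6 (0.63, adjusted p = 0.038). None of these 4 passed with the BioC level as a block, and all 4 failed when either N2 array was left out. The rise of acl-6 failed without any 1 of 7 of the arrays, that of sams-1 without any 1 of 4, and that of acl-5 in xpa-1 without any 1 of 3. Against the single mutants, the double mutant was lower for 6 (nth-1) and 5 (xpa-1) genes and higher for 1, near the 36.7% and 34.8% called among all probe sets. Among the genes lower in both were acs-22 (-2.13 and -1.63), acl-5 (-1.48 and -1.40) and dhs-3 (-1.45 and -1.11), and against xpa-1 acl-6 was lower by more than dhs-3 (-1.17, adjusted p = 0.0011). The falls of acs-22, acl-5, dhs-3 and acl-6 against xpa-1 passed under the block (adjusted p = 0.018, 0.014, 0.012 and 0.0053). Against nth-1, of acs-22, acl-5 and dhs-3, only dhs-3 did (adjusted p = 0.044).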

How the data were processed

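RNA of 9 mixed-stage populations was hybridized to Affymetrix C. elegans arrays with 22625 probe sets. In dChip (version not given in the sources used here) the authors applied invariant-set normalization and the PM-only model-based expression index, and they deposited log2 values (0 to 14.55, array medians 7.43 to 7.69). The methods state 3 replicates per strain, and the table holds 9 arrays; 30 plates per replicate are read as separate cultures. The number of arrays limits the precision.

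Control probe sets (77) were left out. The comparisons used R 4.3.3 and limma 3.58.1 (lmFit, eBayes with a variance trend, 5 residual degrees of freedom), adjusted by Benjamini-Hochberg over 22548 probe sets, of which 20766 carry 1 gene symbol, 887 several and 895 none. Folds are ratios of arithmetic means of unlogged values. The platform annotation named the genes, and RefSeq (WBcel235) gave neighbours. Every member is named; of the 3 wider lists, up to 4 called genes per comparison with the largest change, and nhr-49, nhr-80 and mdt-15 were named after their values were seen. Members and lists were chosen with earlier results of these data known. The listed elo-8, seip-1 and vit-3 matched no probe set by symbol alone and were not used here. The fit was tested on simulated data. Alternatives were quantile normalization, 32 added before the logarithm, no variance trend, a filter at the 40th percentile, the replicate number or BioC level as a block, the mean of a gene's probe sets, only the compared strains, and leaving out each array. Plots were made in Python 3.11.15 (matplotlib 3.10.9).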

Additional observations from a re-analysis of the deposited data

Results flagged for a closer look

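For 4 members the effect of 1 mutation differed with the state of the other gene, by limma's test of the interaction. The value was -0.48 for fat-1, -1.27 for fat-4, -1.57 for fat-5 and -2.36 for pod-2, all 4 in the direction of a lower double mutant than the sum of the single mutants gives, where 39.4% of all probe sets were called. The arrays that carry the single-mutant changes also differ in BioC level from those of N2 and the double mutant, except xpa-1 replicate 1, and the part of that level in the 4 values was not tested beyond the block given with the results. Every strain has 2 or 3 arrays, so no strain was searched for single arrays that stand apart by a formal rule.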

How the results depend on the processing

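Of the 70 member differences (10 genes in 7 comparisons), 70 kept their direction or stayed uncalled on the same side of the threshold with 32 added before the logarithm, with the filter at the 40th percentile and with the mean of a gene's probe sets. Quantile normalization added 1 call (fat-4, double mutant against xpa-1) and moved the median of all probe sets in the interaction from 0.17 to -0.0021. Leaving out the variance trend ended 3 calls, so that 1 member was called between the double mutant and xpa-1 (34.3% of all probe sets called). With the BioC level as a block 0 members were called in xpa-1 against N2, 0 in the double mutant against nth-1, 1 (fat-5) against xpa-1 and 0 in the interaction, and fat-4 turned to 0.03 against nth-1 and 0.005 in the interaction. The block shifts every nth-1 value by the difference between the 2 xpa-1 arrays.

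Fits of only the compared strains called 2 members in xpa-1 against N2 (with 18.2% of all probe sets) and 1 in the double mutant against xpa-1 (41.6%). In the double mutant against N2 they called 8 (with 43.7% of all probe sets, against 8.64% in the fit of 9 arrays). With ratios of geometric means 1 member passed 1.8-fold in nth-1. Replicate numbers do not pair the samples: correlations of deviations between same-numbered arrays ran from -0.3 to 0.104. With the replicate block, 2 members were called in xpa-1 against N2 (24.0% of all probe sets called) and 2 in the double mutant against N2 (22.4%). There were 4 in the double mutant against xpa-1 (47.2%) and 1, fasn-1, between xpa-1 and nth-1 (3.63%). Number 3 exists in nth-1 alone, so the replicate block takes that array out of the estimate.

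When arrays were left out in turn, the members called numbered 0 to 1 in nth-1 against N2, 0 to 3 in xpa-1 against N2, 0 to 2 in the double mutant against N2, 1 to 4 against nth-1, 1 to 5 against xpa-1, 0 to 2 between xpa-1 and nth-1 and 1 to 5 in the interaction, and those past 1.8-fold 1 to 2 in nth-1 and 1 to 2 in the double mutant. The highest counts of called members were reached without nth-1 replicate 3, a fit in which 26.9% (nth-1), 28.6% (xpa-1) and 26.2% (double mutant) of all probe sets were called against N2.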
